A study of Mus musculus with 14 samples.

Results

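The genes described here are the contractile genes of the myometrium, the smooth muscle wall of the uterus. They are 32 genes taken by symbol from a fixed list of actin filament, myosin, dense body and excitation genes. All 32 symbols were found among the 31274 of the expression table. All 32 also passed the filter of at least 1 FPKM (sequenced fragments per length of transcript and per size of the library) in at least 3 libraries, which 14278 genes passed. RNA sequencing had been run on uterine tissue of FVB/N mice aged 2 months that were intact and untreated. WT mice gave 4 libraries at diestrus, the luteal stage of the estrous cycle, and 3 at estrus, the stage around ovulation. Mice labelled HIF2A cKO, a conditional knockout of the hypoxia-inducible transcription factor encoded by Epas1, gave 4 libraries at diestrus and 3 at estrus. The Cre driver, the deleted exons and the cells in which the deletion takes place are not given in the labels. No label says that libraries came from separate animals, so the p-values cover sample-to-sample spread that may be technical only.

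Smooth muscle contracts when calcium, let in through voltage-gated channels or released from internal stores, binds calmodulin and activates myosin light chain kinase. The kinase phosphorylates the regulatory light chain of smooth muscle myosin, which then pulls on thin filaments of actin and tropomyosin that are anchored in dense bodies and linked to the cell membrane. Many of these genes are known targets of serum response factor and its coactivator myocardin, which act at CArG boxes in promoters. In the uterus, oxytocin receptors and gap junctions of connexin 43 are the known means by which contractions are triggered and spread between cells.

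Promoter sequences are shown for 5 members. Acta2 and Myl9 are shown because both fell at estrus and hold a CArG box with at most 1 mismatch. Of the 11 members with a promoter that fell in WT, only these and Pdlim3 hold one, and Tpm2 and Cnn1, which fell steeply, do not. Vcl is shown because it held an exact CArG box and did not pass the test between stages. Oxtr and Gja1 are shown because their diestrus levels differed most between the genotype labels. Each run is the 250 bases before the RefSeq transcript start, 5′ to 3′ on the gene's strand, from RefSeq promoters on GRCm38.p6. GENCODE M21 starts Acta2 (at 34255590), Myl9 (156775420) and Oxtr (112489943) inside these runs, so motif distances hold for the RefSeq start only. Capitals mark CArG boxes with at most 1 mismatch in the stretch of A and T (Acta2, Myl9, Vcl), CACGTG and AGGTCA (Oxtr) and TGAGTCA (Gja1).
Acta2, chr19:34255374-34255623, minus strand: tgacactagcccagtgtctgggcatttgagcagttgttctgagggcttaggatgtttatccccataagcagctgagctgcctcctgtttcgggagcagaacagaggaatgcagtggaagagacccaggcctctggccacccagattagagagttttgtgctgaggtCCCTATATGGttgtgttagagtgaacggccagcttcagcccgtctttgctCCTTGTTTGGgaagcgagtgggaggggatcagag
Myl9, chr2:156775214-156775463, plus strand: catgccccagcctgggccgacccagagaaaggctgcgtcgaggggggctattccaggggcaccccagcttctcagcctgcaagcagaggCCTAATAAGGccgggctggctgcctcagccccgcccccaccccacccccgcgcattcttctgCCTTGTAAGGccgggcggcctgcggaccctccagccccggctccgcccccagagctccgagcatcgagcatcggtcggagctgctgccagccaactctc
Vcl, chr14:20929148-20929397, plus strand: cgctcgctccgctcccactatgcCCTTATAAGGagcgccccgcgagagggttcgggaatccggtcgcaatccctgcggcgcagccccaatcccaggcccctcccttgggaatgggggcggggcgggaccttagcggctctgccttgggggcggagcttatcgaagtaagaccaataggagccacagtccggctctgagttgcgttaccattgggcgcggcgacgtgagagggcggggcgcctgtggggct
Oxtr, chr6:112489826-112490075, minus strand: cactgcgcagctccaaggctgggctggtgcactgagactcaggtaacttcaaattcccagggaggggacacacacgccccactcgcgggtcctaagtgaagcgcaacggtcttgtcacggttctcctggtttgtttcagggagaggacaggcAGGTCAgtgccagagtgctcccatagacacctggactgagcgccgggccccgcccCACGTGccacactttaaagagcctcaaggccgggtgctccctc
Gja1, chr10:56377050-56377299, plus strand: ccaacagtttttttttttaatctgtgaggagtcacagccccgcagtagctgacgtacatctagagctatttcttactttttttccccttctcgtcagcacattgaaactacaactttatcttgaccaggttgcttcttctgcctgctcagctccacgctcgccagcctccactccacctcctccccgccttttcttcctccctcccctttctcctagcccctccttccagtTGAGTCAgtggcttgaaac

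RefSeq promoters were found for 26 of the 32 members, and Actg2, Tagln, Myh11, Itpr1, Atp2a2 and Myocd had none in the table. The windows searched ran from 250 bases before to 50 after each start, on both strands. An exact CArG box (CC and GG around an unbroken run of A and T) lay in the promoters of Myl9, 161 bases before the start, and Vcl, 227 bases before. It lay in 1.63% of all 32851 promoters and in 2 of the 31 promoters of members. With at most 1 mismatch in the run of A and T, the motif was in 9.98% of all promoters and in 8 of the 31, which belong to Vcl, Acta2, Dstn, Myl9, Cacna1c, Synm and Pdlim3. Of the 11 members with a promoter that fell at estrus in WT, 3 held this looser motif, against 4 of the 15 others with a promoter. ACGTG, the core of the hypoxia response element, was in 19.6% of all promoters and in 7 of the 31. It was read on both strands as CACGTG in Oxtr, 43 bases before the start, and in Synm, 193 bases before. TGANTCA, the motif of AP-1 factors, was in 7.81% of promoters and in 3 of the 31, among them Gja1, 19 bases before the start. AGGTCA, a half-site of nuclear receptors, was in 16.3% of promoters and in 1 of the 31, that of Oxtr, 98 bases before the start. TATAAA, the TATA box, was in 13.6% of promoters and in 3 of the 31, and CATTCC, the core of the element bound by TEAD factors, in 14.7% and in 10 of the 31. Only the exact CArG box was planned. The looser form was not, and the motifs other than the CArG box were chosen after the expression values were seen.

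Summed FPKM ranged from 437879 to 497688 per library. At diestrus Epas1 averaged 34.8 ± 5.82 FPKM over 4 WT libraries (SD) and 39.5 ± 4.44 over the 4 labelled HIF2A cKO (exact two-sided permutation p = 0.257). At estrus the means were 32.9 ± 1.56 and 41.2 ± 4.01 over 3 libraries each, where an exact permutation p of 0.1 is the lowest possible. Libraries labelled HIF2A cKO thus showed no lower Epas1, and HIF2A cKO is used below as a label. A gene-level FPKM does not show whether single exons were lost. Replicate 4 of diestrus in the group labelled HIF2A cKO stood apart, with Mir6236 at 7.07% of summed FPKM against at most 2.02% for the top gene of any other library.

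The smooth muscle markers were at high levels in every library. In WT diestrus Acta2 (smooth muscle alpha actin) led at 1258 ± 168 FPKM (SD, n = 4), followed by Tagln (transgelin, an actin-bundling protein) at 1156 ± 142 and Myl9 (regulatory myosin light chain) at 1071 ± 134. The libraries of these 3 neighbours overlapped in level. Of the 32 members, 18 had group means above 100 FPKM in all 4 groups. The lowest were Pln (phospholamban) at 8.19 ± 1.89 FPKM, Myocd (myocardin) at 9.09 ± 3.55 and Cacna1c (the pore of the L-type calcium channel) at 10.3 ± 2.77. Together the members took 2.43% ± 0.336 of summed FPKM in WT diestrus (n = 4), 2.02% ± 0.0970 in WT estrus (n = 3), 2.45% ± 0.326 in diestrus (n = 4) and 2.14% ± 0.0796 in estrus (n = 3) labelled HIF2A cKO. The plot of FPKM in all libraries gives every member.

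**Figure D1:**
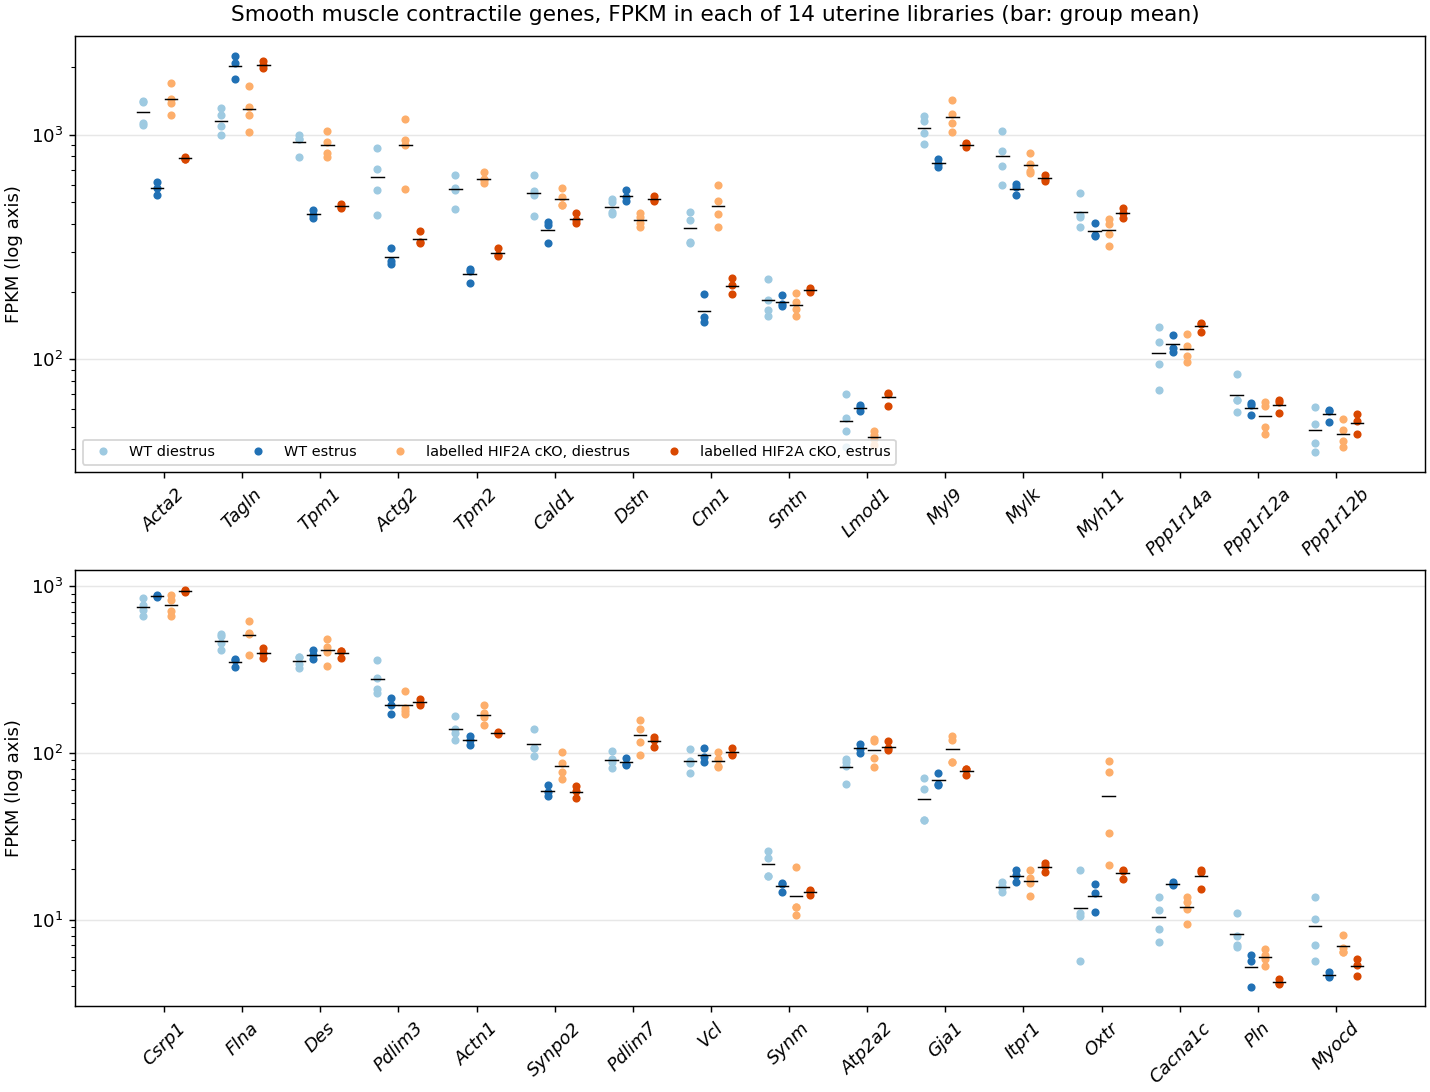
FPKM of each of the 32 members (log axis) in each of the 14 libraries, ordered by role and by WT diestrus mean, where points are libraries, colours the 4 groups and bars group means. Acta2, Actg2, Tpm1, Tpm2 and Cnn1 sat lower at estrus than at diestrus under both genotype labels, and Tagln sat higher.

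The first comparison asks how contractile genes differ between estrus and diestrus in WT. The thin filament genes showed the largest changes. Of the 10 thin filament members, 6 fell at estrus and 1 rose, against 34.1% and 23% of all genes. The steepest falls were in both actins, both tropomyosins and calponin. Tpm2 (beta tropomyosin), which lies along the actin filament, was 469, 663, 568 and 581 FPKM in diestrus replicates 1 to 4. It was 246, 219 and 253 FPKM in estrus replicates 1, 2 and 4, all below the lowest diestrus library. This was a fall by 1.24 ± 0.11 log2 (SE), or 2.36-fold on the FPKM + 1 scale, with a limma adjusted p of 1.89e-06.

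Cnn1 (calponin, which restrains the actomyosin ATPase) was 334, 453, 331 and 416 FPKM at diestrus and 154, 146 and 195 at estrus in WT. The groups did not overlap, and Cnn1 fell by 1.21 ± 0.16 log2 (limma adjusted p = 5.25e-05). Acta2 was 1128, 1409, 1099 and 1397 FPKM at diestrus and 542, 577 and 618 at estrus, a fall by 1.11 ± 0.13 log2 (limma adjusted p = 1.97e-05). Actg2 (enteric smooth muscle gamma actin) varied more at diestrus. It was 439, 871, 702 and 570 FPKM there and 266, 273 and 314 at estrus, with a fall by 1.14 ± 0.24 log2 (limma adjusted p = 0.00139). Tpm1 (alpha tropomyosin) fell by 1.06 ± 0.11 log2 and Cald1 (caldesmon, an actin-binding inhibitor of myosin) by 0.53 ± 0.13.

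Tagln went the other way. Its level was 1093, 1225, 992 and 1315 FPKM at WT diestrus and 2239, 1773 and 2085 at WT estrus, so that every estrus library was above every diestrus library. It rose by 0.81 ± 0.16 log2 in WT (1.76-fold, limma adjusted p = 0.000874). In libraries labelled HIF2A cKO it was 1648, 1324, 1218 and 1029 FPKM at diestrus and 2120, 2038 and 1974 at estrus, a rise by 0.67 ± 0.16 log2 (limma adjusted p = 0.00271). Transcripts of Gm48529 on the opposite strand cover 62.4% of its exonic bases in GENCODE M21, and those of Pcsk7, also opposite, cover 108 bases. Strand use in the authors' counting is not given in the sources used here, so reads of Tagln (chr9:45929619-45936058, minus strand) and of these genes cannot be told apart. Smtn (smoothelin), Lmod1 (leiomodin, an actin filament nucleator) and Dstn (destrin, which severs filaments) did not pass the test in WT, at -0.01, 0.22 and 0.16 log2.

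Of the myosin genes, 2 of 6 fell in WT and none rose, against 34.1% and 23% of all genes, so the share that fell was near that of all genes. Myl9 went from 1071 ± 134 FPKM at diestrus (SD, n = 4) to 746 ± 31.9 at estrus (n = 3), a fall by 0.51 ± 0.13 log2 (limma adjusted p = 0.00391). Mylk (myosin light chain kinase) fell by 0.45 ± 0.15 log2, but its groups overlapped and the call was lost on leaving out any of WT diestrus replicates 1 and 4 and WT estrus replicates 1 and 4 (limma adjusted p from 0.0542 to 0.0823) and with each of the other scalings run (median-of-ratios, equal-sum and quantile). Myh11 (smooth muscle myosin heavy chain) stood at 451 ± 69.2 FPKM at diestrus and 372 ± 29.2 at estrus, a difference of -0.27 ± 0.12 log2 that did not pass. The myosin phosphatase genes Ppp1r12a, Ppp1r12b and Ppp1r14a did not pass either, at -0.16, 0.25 and 0.16 log2.

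Among the 9 dense body, intermediate filament and adhesion genes, 3 fell in WT and none rose. Of all genes 34.1% fell and 23% rose, so the share that fell was near that of all genes. Synpo2 (synaptopodin 2, an actin-bundling protein of Z-discs and dense bodies) was 107, 96.3, 106 and 140 FPKM at diestrus and 55.1, 63.8 and 57.9 at estrus. It fell by 0.91 ± 0.14 log2 (limma adjusted p = 0.000128) with no overlap. Pdlim3, a PDZ and LIM protein that binds alpha-actinin, fell by 0.50 ± 0.15 log2 (limma adjusted p = 0.0584 without WT estrus replicate 1), and Flna (filamin A, an actin crosslinker) fell by 0.42 ± 0.14 (limma adjusted p = 0.0526 and 0.0802 without WT diestrus replicate 4 or WT estrus replicate 1, and lost with median-of-ratios and equal-sum scaling). Des (desmin, the muscle intermediate filament) was 353 ± 27.6 FPKM at diestrus and 387 ± 25.9 at estrus, and Vcl (vinculin, which links actin to adhesions) was 89.1 ± 11.9 and 96.5 ± 10.1. Neither passed the test.

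Of the 6 excitation genes, 2 rose and 1 fell in WT, against 23% and 34.1% of all genes. Under the HIF2A cKO label 2 rose and 2 fell, against 25.5% and 36.5%. Cacna1c was 11.4, 8.82, 7.36 and 13.6 FPKM at diestrus and 16.7, 16.01 and 16.3 at estrus, without overlap, and rose by 0.65 ± 0.17 log2 (limma adjusted p = 0.00591). Atp2a2 (SERCA2, the pump that returns calcium to the sarcoplasmic reticulum) rose by 0.38 ± 0.14 log2, a call that was lost on leaving out any of WT diestrus replicates 1 and 3 and WT estrus replicates 2 and 4 (limma adjusted p from 0.0509 to 0.109). Pln, the inhibitor of that pump, fell by 0.56 ± 0.15 log2 (limma adjusted p = 0.00653), from 8.19 ± 1.89 to 5.23 ± 1.11 FPKM. The opposite-strand gene with the most overlap covers 59.6% of the exonic bases of Pln (Gm47644), 25.5% of those of Vcl (Ap3m1) and 16.3% of those of Smtn (Gm11946). Myocd, the coactivator, was 10.04, 7.06, 5.62 and 13.6 FPKM at diestrus and 4.82, 4.52 and 4.61 at estrus, a fall by 0.77 ± 0.21 log2 (limma adjusted p = 0.00651).

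Counted over all members, 13 of 32 fell in WT, 3 rose and 16 did not pass limma's test at an adjusted p of 0.05. Of all 14278 genes, 34.1% fell and 23% rose, so the share of members that fell (13 of 32) was not far from that of all genes. The median of the members was -0.19 log2 and that of all genes -0.09. Median-of-ratios scaling gave 7 members higher and 11 lower, against 3972 and 3862 of all 14278 genes.

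The same question was put to the libraries labelled HIF2A cKO. There 11 members fell, 6 rose and 15 did not pass, against 36.5% and 25.5% of all genes, and the medians were -0.07 log2 for members and -0.08 for all genes. Median-of-ratios scaling gave 10 members higher and 9 lower, against 4361 and 4356 of all 14278 genes. The thin filament genes again led, with 5 lower and 3 higher of 10. Actg2 was 1178, 950, 899 and 572 FPKM at diestrus and 371, 332 and 329 at estrus, a fall by 1.34 ± 0.24 log2 (limma adjusted p = 0.000334). Cnn1 fell by 1.16 ± 0.16 log2, Tpm2 by 1.09 ± 0.11, Tpm1 by 0.89 ± 0.11 and Acta2 by 0.86 ± 0.13, and in each of these genes the stages did not overlap. Lmod1 was 48.1, 44.1, 41.6 and 46.2 FPKM at diestrus and 62.1, 70.9 and 70.1 at estrus, a rise by 0.58 ± 0.14 log2 (limma adjusted p = 0.00242).

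Further members passed under the HIF2A cKO label, besides Tagln above and Oxtr, which is described with the genotype comparison. Cacna1c rose by 0.58 ± 0.17 log2 (limma adjusted p = 0.0104, and 0.0937 on leaving out the 2 libraries highest in 45S rRNA), and Dstn by 0.31 ± 0.08 (limma adjusted p = 0.0063). Synpo2 fell by 0.50 ± 0.14 log2, Myl9 by 0.41 ± 0.13 and Actn1 (alpha-actinin, the dense body crosslinker) by 0.36 ± 0.11. The calls of Dstn, Synpo2 and Myl9 were lost with quantile normalization, and that of Myl9 also without the filter on low values. Csrp1 (a LIM protein of smooth muscle), Itpr1 (the IP3 receptor that releases stored calcium), Pln and Flna passed at 0.28, 0.28, -0.41 and -0.34 log2. Each of these 4 calls was lost on leaving out any 1 of several libraries, with limma adjusted p from 0.0506 to 0.149, both for Flna, and the calls of Flna and Pln were also lost with median-of-ratios and equal-sum scaling. With the replicate number as a block, Csrp1 did not pass (limma adjusted p = 0.0823), while Cald1 passed as lower at -0.36 log2 and Synm as higher at 0.27.

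Across the genotype labels, 9 members fell at estrus in both: Acta2, Actg2, Tpm1, Tpm2, Cnn1, Myl9, Synpo2, Flna and Pln. Tagln and Cacna1c rose in both, no member was called in opposite directions, and 10 were called in neither. Of all genes, 28.2% fell in both, 18.8% rose in both and 28% were called in neither, so the share of members that fell in both (9 of 32) was near that of all genes. The cycle change itself was compared by the interaction, the change in libraries labelled HIF2A cKO minus that in WT. No member passed (0 higher and 0 lower of 32), against 0.014% higher and 0.021% lower of all genes by limma. At an unadjusted p under 0.05 there were 4 of 32 members, against 17.6% of all genes. They were Oxtr at -1.59 ± 0.63 log2 (adjusted p = 0.232), Gja1 at -0.82 ± 0.28 (0.189), Pdlim3 at 0.58 ± 0.21 (0.212) and Myh11 at 0.53 ± 0.18 (0.181). With library weights 8 members were higher and 5 lower, against 2342 and 2883 of all 14278 genes. Without both diestrus libraries numbered 3 there were 3 and 1 members, with 1204 genes called in all. Without replicate 3 of diestrus labelled HIF2A cKO alone, 1 member was higher and 1 lower, against 531 and 650 of 14218 genes.

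**Figure D2:**
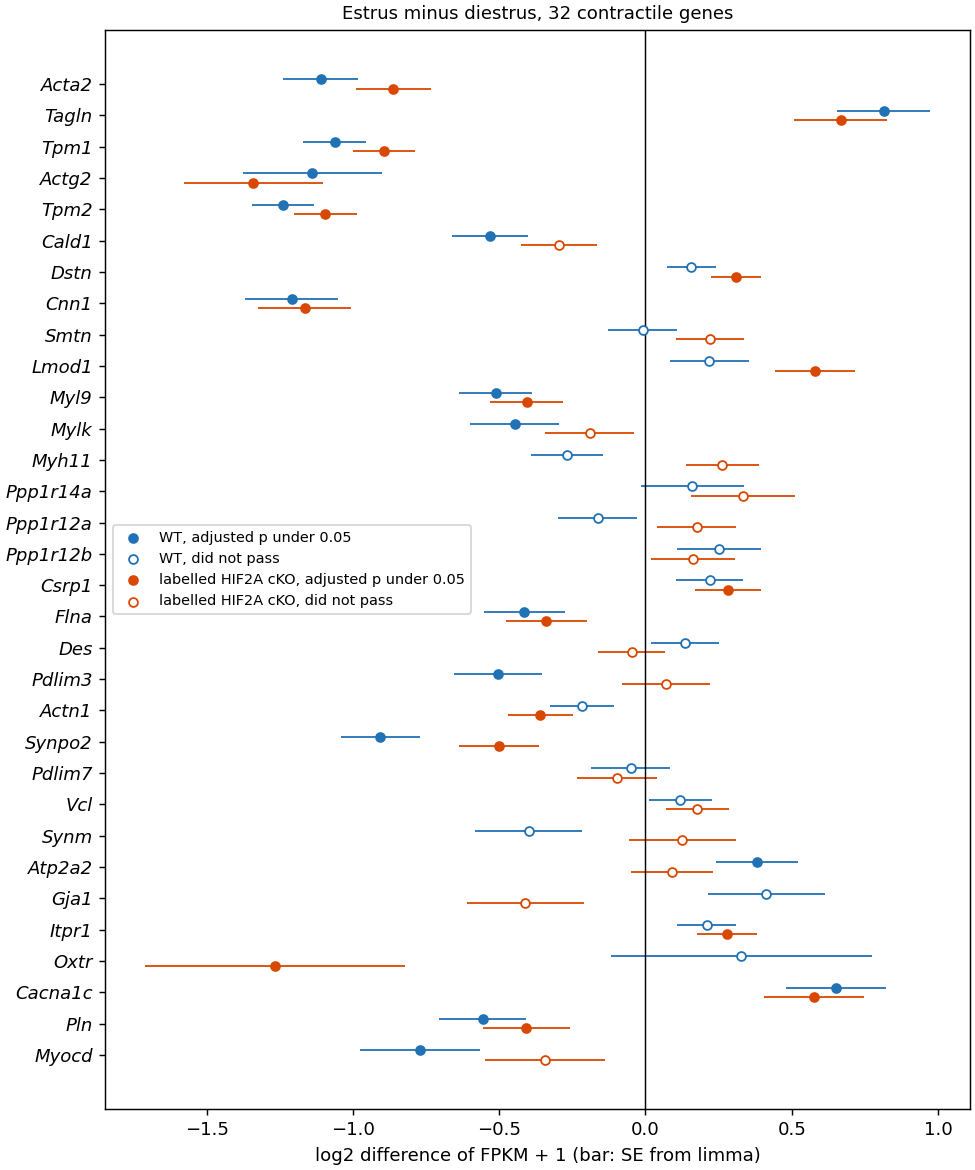
Estrus minus diestrus difference of log2(FPKM + 1) for each of the 32 members with its SE from limma, in WT (blue) and in libraries labelled HIF2A cKO (orange), where filled points passed at an adjusted p under 0.05. Tpm2 at -1.24 and -1.09 and Cnn1 at -1.21 and -1.16 lie far to the left under both labels, Tagln at 0.81 and 0.67 to the right, and Oxtr at 0.33 and -1.27 has its points apart.

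Because members moved in opposite directions, some ratios within a library set the stages apart. These ratios were chosen after the values were seen and are given without a test. Tagln over Cnn1 was 3.28, 2.70, 3.00 and 3.16 in WT diestrus and 14.6, 12.1 and 10.7 in WT estrus. In libraries labelled HIF2A cKO it was between 2.62 and 2.76 at diestrus and between 9.23 and 10.1 at estrus, so each estrus library stood above every diestrus library. Myh11 over Acta2 was 0.360 ± 0.0414 (SD, n = 4) in WT diestrus and 0.643 ± 0.0226 (n = 3) in WT estrus, and 0.262 ± 0.0118 and 0.572 ± 0.0372 under the HIF2A cKO label. Actg2 over Acta2 moved less in WT, 0.513 ± 0.133 and 0.491 ± 0.0176, with overlap. Under the HIF2A cKO label it was 0.617 ± 0.105 at diestrus and 0.438 ± 0.0343 at estrus, and replicate 4 of diestrus (0.469) overlapped with the estrus libraries. A ratio shows unequal change and does not say which of the genes moved.

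**Figure D3:**
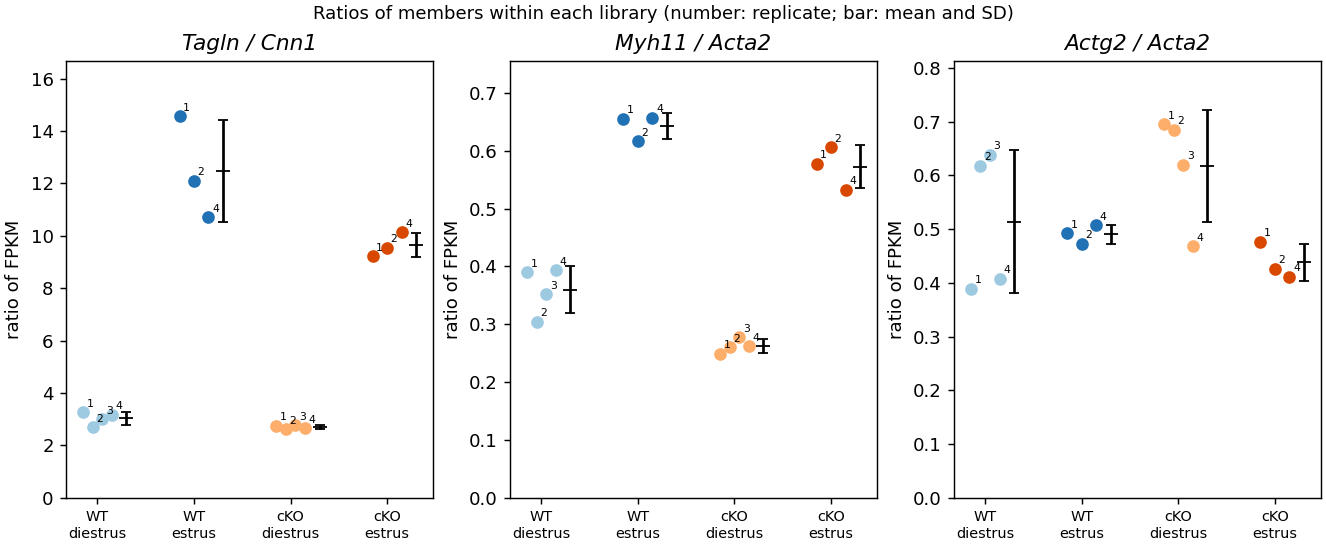
Ratio of FPKM within each library for Tagln over Cnn1, Myh11 over Acta2 and Actg2 over Acta2, where points are libraries with their replicate number and bars the group mean and SD. The Tagln over Cnn1 ratio lies between 2.62 and 3.28 in the diestrus libraries and between 9.23 and 14.6 in the estrus libraries.

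Muscle actins outside the list moved further. Acta1, the skeletal muscle alpha actin, was 216 ± 67.3 FPKM in WT diestrus (SD, n = 4) and 17.0 ± 3.06 in WT estrus (n = 3), a fall by 3.55 log2 (limma adjusted p = 1.01e-07). In libraries labelled HIF2A cKO it fell by 3.21 log2, from 187 ± 29.1 to 19.2 ± 2.45 FPKM. The skeletal myosins Myh1 and Myh2 and the cardiac myosin Myh6 were at or near 0 in all groups. Tnnt2, the cardiac troponin T, fell by 1.99 and 1.71 log2, from 8.55 ± 2.85 FPKM in WT diestrus to 1.38 ± 0.623 in WT estrus. Actc1, the cardiac actin, named after its values were seen, fell by 2.45 and 1.84. Nppa, the atrial natriuretic peptide gene and the remaining cardiac marker that could be tested, rose by 0.86 and 0.97, from 0.514 ± 0.301 to 1.71 ± 0.304 FPKM in WT; it too is named after its values were seen. Actb, the cytoplasmic actin present in all cells and also named after its values were seen, did not pass at -0.11 and -0.06 log2.

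In bulk tissue, fewer smooth muscle cells and less of a transcript per cell cannot be told apart. Markers of other cell types moved with the stage. The summed FPKM of the 10 epithelial markers was 488 to 688 in WT diestrus and 1153 to 1398 in WT estrus, and all 3 defining markers Epcam, Cdh1 and Krt8 were detected in each group. The 7 macrophage markers found summed to 412 to 617 and 783 to 879, and the 10 stromal markers to 2140 to 2612 and 1858 to 2061. The 8 endothelial markers summed to 207 to 349 in WT diestrus and 171 to 206 in WT estrus. The 10 pericyte and vascular smooth muscle markers, which include the member Myh11, summed to 587 to 774 and 556 to 589. Myh11 alone averaged 451 FPKM in WT diestrus, so most of that sum is the member itself. The 6 mesothelial markers summed to 113 to 214 and 231 to 294. Of these 6, 1 rose and 1 fell in WT, against 23% and 34.1% of all genes, with a median of 0.03 log2. This list shares a marker with the epithelial list. The part of these cell type markers in the changes of the contractile genes was not tested.

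The next comparison asks how the contractile genes of libraries labelled HIF2A cKO differ from WT at diestrus. The oxytocin receptor and connexin 43 stood out. Oxtr, the receptor for the uterotonic hormone oxytocin (chr6:112473683-112489943, minus strand), was 10.96, 19.9, 5.65 and 10.5 FPKM in WT replicates 1 to 4. It was 89.6, 76.3, 21.4 and 33.2 FPKM in the replicates labelled HIF2A cKO, all above the highest WT library, with replicates 1 and 2 far above 3 and 4. The difference was 2.03 ± 0.41 log2 (SE), or 4.09-fold on the FPKM + 1 scale, with a limma adjusted p of 0.00701.

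Gja1, which encodes connexin 43, the gap junction protein of the myometrium, was 39.4, 70.7, 61.0 and 39.3 FPKM in WT. It was 127, 119, 87.5 and 87.5 FPKM in libraries labelled HIF2A cKO, again without overlap, a difference of 1.01 ± 0.19 log2 (2.02-fold, limma adjusted p = 0.00499). Both calls held on leaving out each library in turn, and both were lost when the 8 diestrus libraries were fitted alone, with adjusted p of 0.0568 for Oxtr and 0.0514 for Gja1. Over all settings run, adjusted p ranged from 7.00e-06 to 0.0568 for Oxtr and from 5.95e-06 to 0.0514 for Gja1.

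At estrus these genes were closer. Oxtr was 16.3, 11.2 and 14.3 FPKM in WT and 19.9, 19.5 and 17.6 under the HIF2A cKO label, a difference of 0.44 ± 0.48 log2 that did not pass (limma adjusted p = 0.926). Gja1 was 65.1, 64.1 and 75.7 FPKM in WT and 80.1, 80.4 and 73.1, at 0.19 ± 0.21 log2. Oxtr fell from diestrus to estrus in libraries labelled HIF2A cKO by 1.27 ± 0.45 log2 (limma adjusted p = 0.0251), and that call was lost without replicate 1 or 2 of diestrus or any estrus replicate of that label (adjusted p from 0.0540 to 0.0714). In WT its cycle change was 0.33 ± 0.45 log2. The difference between these cycle changes is the interaction given above, which did not pass.

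**Figure D4:**
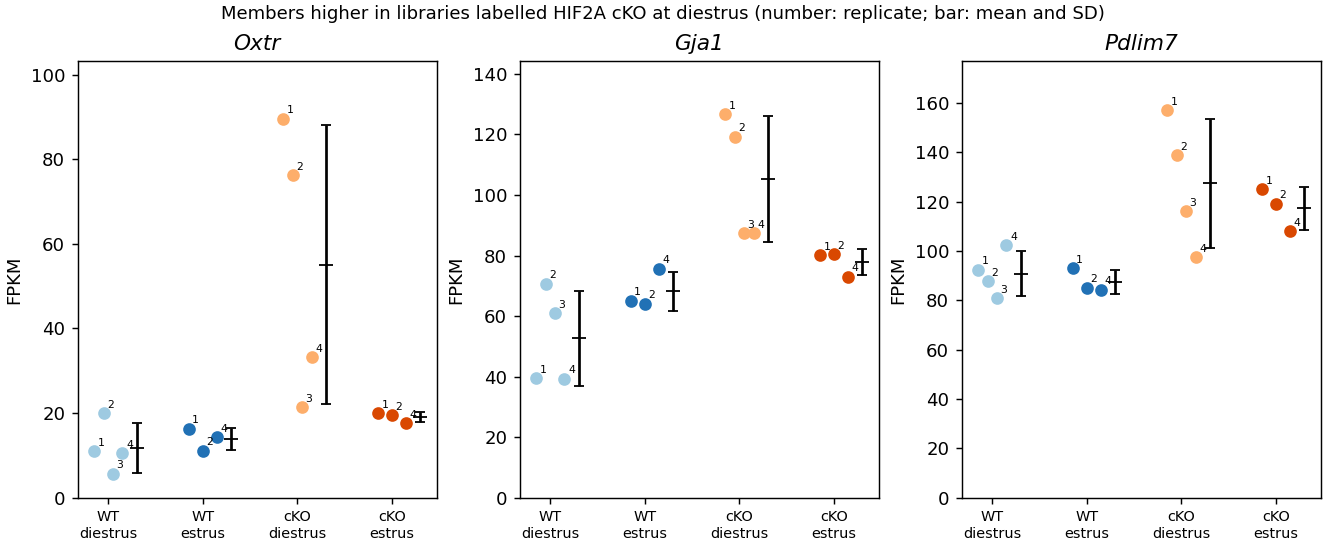
FPKM of Oxtr, Gja1 and Pdlim7 in each library, where points carry the replicate number and bars are the group mean and SD. At diestrus Oxtr is between 5.65 and 19.9 FPKM in WT and between 21.4 and 89.6 in libraries labelled HIF2A cKO, and Gja1 between 39.3 and 70.7 and between 87.5 and 127.

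Of the dense body genes at diestrus, 1 was higher and 3 were lower, against 13.8% and 10% of all genes. Pdlim7, another PDZ and LIM protein of the actin cytoskeleton, was 92.4, 87.9, 80.9 and 102 FPKM in WT and 157, 139, 116 and 97.5 under the HIF2A cKO label. Its groups overlapped through replicate 4, and the difference was 0.47 ± 0.13 log2 (limma adjusted p = 0.0208), a call that was lost with equal-sum scaling and quantile normalization. Synm (synemin, an intermediate filament protein that pairs with desmin) was 18.1, 18.2, 25.8 and 23.5 FPKM in WT and 11.9, 10.6, 20.7 and 11.9, a difference of -0.63 ± 0.17 log2 (limma adjusted p = 0.0207). Replicate 3 of the HIF2A cKO label overlapped with WT.

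Pdlim3 was 282, 240, 229 and 359 FPKM in WT and 186, 178, 235 and 171 under the HIF2A cKO label, at -0.51 ± 0.14 log2 (limma adjusted p = 0.0211). Synpo2 was 107, 96.3, 106 and 140 FPKM and 76.8, 70.0, 101 and 87.2, at -0.42 ± 0.13 log2 (limma adjusted p = 0.0308). In both genes replicate 3 of the HIF2A cKO label overlapped with WT. The 4 dense body calls were each lost without replicate 1 or without replicate 2 of diestrus labelled HIF2A cKO, with limma adjusted p from 0.0571 to 0.105. Single WT diestrus libraries also ended calls, replicate 1 those of Pdlim3 and Synpo2, replicate 3 those of Synm and Pdlim7 and replicate 4 those of Synm and Synpo2 (limma adjusted p from 0.0524 to 0.0817).

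Over all members, 3 were higher, 3 lower and 26 did not pass at diestrus, against 13.8% and 10% of all genes. The medians were 0.06 log2 for members and 0.02 for all genes. Equal-sum scaling gave 2 higher and 4 lower and turned both medians negative, to -0.02 and -0.06, with 35.6% of all calls higher against 57.9%. Groups did not overlap for 2 members in the higher direction, Oxtr and Gja1, and 1 in the lower, Pln, against 8.8% and 6.96% of all genes. No thin filament or myosin gene passed: Acta2 differed by 0.19 ± 0.12 log2, Cnn1 by 0.33 ± 0.15, Actg2 by 0.48 ± 0.22 and Myh11 by -0.26 ± 0.11. Myocd was at -0.29 ± 0.19. At an unadjusted p under 0.05 there were 13 of 32 members, 6 higher and 7 lower, against 39.2% of all genes, a share near that of the members.

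No label pairs the diestrus libraries by replicate number, and the diestrus calls above come from a fit without pairing. With the replicate number as a block in the fit of all libraries, 5 members were higher (Actn1 and Atp2a2 joined) and 4 lower (Pln joined). Of all 14278 genes, 2688 were then higher and 2093 lower. In a fit of the diestrus libraries alone with the replicate block, Oxtr and Gja1 were higher and Synm lower, and Pdlim7, Pdlim3 and Synpo2 were lost. Without the block the diestrus libraries alone gave 0 higher and 0 lower members by limma, against 245 and 156 of all genes. Library weights gave 11 and 9 of the 32 members, against 4324 and 3561 of all 14278 genes. On leaving out the 2 libraries highest in 45S rRNA, replicate 4 of diestrus and replicate 1 of estrus labelled HIF2A cKO, 6 members were higher and 0 lower. The count of all genes for that setting is not given here, so 6 and 0 cannot be set against it. Without replicate 4 of diestrus labelled HIF2A cKO alone, 7 members were higher and 3 lower, against 2252 and 1592 of 14238 genes. Leaving out each library in turn gave 2 to 7 higher and 0 to 5 lower, with 1473 to 5013 genes called in all.

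Diestrus libraries of one group also differed from each other across the members. In WT diestrus, 29 of 32 members of replicate 4 were above their group mean, and 5 of replicate 3. Under the HIF2A cKO label, 27 members of diestrus replicate 1 were above the mean and 5 of replicate 4. At estrus the members' share of summed FPKM ranged from 1.92% to 2.11% in WT and from 2.05% to 2.20% under the HIF2A cKO label, against 2.07% to 2.88% and 2.06% to 2.86% at diestrus. At diestrus the summed epithelial markers were 488 to 688 FPKM in WT and 581 to 1095 under the HIF2A cKO label, the stromal markers 2140 to 2612 and 2132 to 2716, and the macrophage markers 412 to 617 and 380 to 428. The pericyte and vascular smooth muscle markers, with the member Myh11 among them, were 587 to 774 and 488 to 606. The part of these in the differences was not tested.

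At estrus, the question is whether contractile genes differ between the genotype labels at the other stage. No member passed limma's test, 0 higher and 0 lower of 32, against 0.07% and 0.035% of all genes. At an unadjusted p under 0.05 there were 4 of 32 members, against 7.37% of all genes. They were Acta2, Pdlim7, Tpm2 and Cnn1, all higher under the HIF2A cKO label. Acta2 was 542, 577 and 618 FPKM in WT and 778, 779 and 799, at 0.44 ± 0.14 log2 (limma adjusted p = 0.434). Pdlim7 was 92.9, 85.0 and 84.4 FPKM and 125, 119 and 108, at 0.42 ± 0.15 log2 (limma adjusted p = 0.518).

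In 15 of the 32 members every estrus library labelled HIF2A cKO was above every WT library, and in 0 every library was below, against 14.4% and 12% of all genes. The 15 were Acta2, Actg2, Tpm1, Tpm2, Cnn1, Smtn, Myh11, Myl9, Mylk, Ppp1r14a, Pdlim7, Csrp1, Flna, Actn1 and Oxtr. The median difference of the members was 0.14 log2 and that of all genes 0.01. Of the members 27 were positive and 5 negative, against 7391 and 6875 of all 14278 genes. Fitting the estrus libraries alone gave 2 members higher, Acta2 and Pdlim7, and library weights gave 3, with Tpm2 added. Members share libraries, so these counts are not independent of each other. At estrus the summed epithelial markers were 1153 to 1398 FPKM in WT and 1468 to 1661 under the HIF2A cKO label, and the stromal markers 1858 to 2061 and 2224 to 2327. The pericyte and vascular smooth muscle markers, with the member Myh11 among them, were 556 to 589 and 603 to 656. Mesothelial markers summed to 231 to 294 and 358 to 415. The part of these markers in the differences was not tested.

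**Figure D5:**
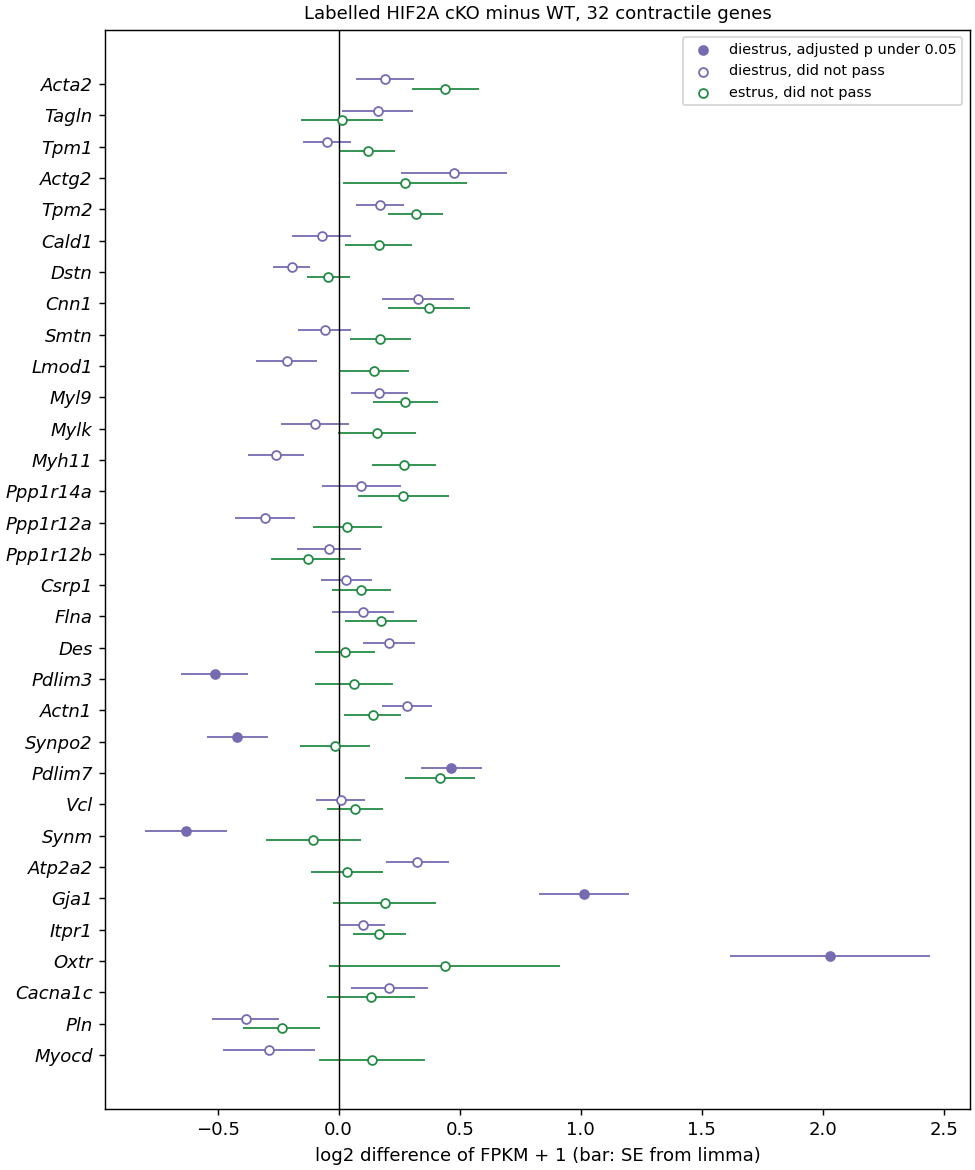
Difference of log2(FPKM + 1) between libraries labelled HIF2A cKO and WT with its SE from limma for each of the 32 members, at diestrus (purple) and estrus (green), where filled points passed at an adjusted p under 0.05. Oxtr at 2.03 and Gja1 at 1.01 lie farthest to the right at diestrus, Synm at -0.63 farthest to the left, and at estrus 27 of 32 points are above 0 and none passed.

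Genes that feed the contractile apparatus were taken from 5 further lists. Their counts stand against 23% of all genes higher and 34.1% lower at estrus in WT, and 25.5% and 36.5% under the HIF2A cKO label. Of the 18 genes that link receptors to serum response factor, 4 rose and 7 fell at estrus in WT. The same numbers rose and fell under the HIF2A cKO label, and these shares are near those of all genes. Plcb1 (a phospholipase that makes IP3) fell by 1.03 log2 under both labels, from 3.54 ± 0.595 to 1.21 ± 0.0903 FPKM in WT. Arhgef11 and Arhgef12, guanine nucleotide exchange factors, rose by 0.48 and 0.40 log2 in WT and 0.58 and 0.39 under the HIF2A cKO label. Gnaq, the G protein alpha subunit that couples to Plcb1, fell by 0.40 log2 in WT, and Srf itself fell by 0.48 under the HIF2A cKO label and did not pass in WT at -0.17. At diestrus 2 were higher and 1 lower under the HIF2A cKO label, against 13.8% and 10% of all genes. Arhgap42, a GTPase-activating protein, was at 0.39 log2 and Plcb4 at -0.55.

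Of the 19 calcium handling genes tested, 11 fell and 2 rose at estrus in WT, and 10 fell and 5 rose under the HIF2A cKO label. Cacna2d1, an accessory subunit of the L-type channel, fell from 19.8 ± 2.79 to 7.85 ± 0.876 FPKM in WT, by 1.23 log2 (limma adjusted p = 3.43e-05). Cav1 and Ptrf, the structural proteins of caveolae, fell by 1.04 and 1.09 log2 in WT and 0.93 and 0.86 under the HIF2A cKO label. The channel subunit Cacnb2 rose by 0.63 and 0.70 log2, like the pore gene Cacna1c, and Orai1, the store-operated channel, rose by 0.49 in WT. At diestrus 3 were higher and 5 lower under the HIF2A cKO label, against 13.8% and 10% of all genes. Jph2 (junctophilin, which ties the sarcoplasmic reticulum to the membrane) was at 0.46 and Cacna1d (another L-type pore) at -0.53 log2.

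Of the 14 non-muscle counterparts, 2 rose and 4 fell in WT, and 0 rose and 6 fell under the HIF2A cKO label. Actg1, the cytoplasmic gamma actin, rose by 0.67 log2 in WT, and Myl6, the essential light chain shared by smooth muscle and non-muscle myosin, fell by 0.67 and 0.52. At diestrus Actg1 was higher under the HIF2A cKO label by 0.50 log2 and Actn4 by 0.28, and no gene of the list was lower. Of all genes 13.8% were higher and 10% lower there. Of the 18 attachment genes, 2 rose and 5 fell in WT and 6 rose and 4 fell under the HIF2A cKO label. Nexn (nexilin) and Flnc (filamin C) fell by 0.95 and 0.80 log2 in WT. Fhl1, a LIM protein, rose by 1.15 log2 under the HIF2A cKO label and was lower there at diestrus by 0.68, while Itga8, an integrin subunit, was lower by 1.03.

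Receptors and relaxation genes, 12 tested, gave 2 higher and 2 lower in WT and 4 and 2 under the HIF2A cKO label. Pde5a, the phosphodiesterase that breaks down cyclic GMP, rose from 34.8 ± 14.6 to 99.7 ± 8.56 FPKM in WT, by 1.59 log2 (limma adjusted p = 0.000389), and by 2.56 log2 under the HIF2A cKO label. Prkg1, the kinase that cyclic GMP activates, rose by 0.39 and 0.76. Ptger3, a contractile prostaglandin E2 receptor, fell from 37.1 ± 7.36 to 11.9 ± 0.796 FPKM in WT, by 1.54 log2. Ednra, the endothelin A receptor, fell by 0.82 log2.

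At diestrus 1 of the 12 genes of that list was higher under the HIF2A cKO label and 5 were lower, against 13.8% and 10% of all genes. Ptger3 was lower by 0.92 log2 and Pde5a by 1.06, the latter at 15.5 ± 4.51 FPKM (n = 4) against 34.8 ± 14.6 (n = 4) in WT. The steroid receptors were read beside them: Pgr (progesterone receptor) fell by 1.34 log2 in WT and by 1.51 under the HIF2A cKO label. Esr1, the estrogen receptor alpha, was higher at diestrus under the HIF2A cKO label by 0.33 log2 (limma adjusted p = 0.0164) and fell at estrus there by 0.35, while its WT cycle change was 0.08.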

How the data were processed

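RNA sequencing of 14 uterine libraries was used as 1 table of FPKM values that the authors deposited, with 31274 gene symbols. TopHat2 2.0.4, Cufflinks 2.0.2 and the build mm10 were used, per the submitters' processing notes. No source used here names the annotation, the strand setting or any scaling between libraries. FPKM holds no read counts, so depth is unknown and no counting error is given. The members and lists were chosen with earlier results of these data known.

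The log2 of FPKM + 1 entered limma 3.58.1 (R 4.3.3) in 1 fit of 4 group means over all libraries, with a mean-variance trend and the Benjamini-Hochberg adjustment at 0.05 over all 14278 genes that reached 1 FPKM in 3 or more libraries. A fold change on this scale understates that of low genes. Left out besides were 7 genes listed at 0 throughout 1 group but averaging 50 FPKM or more elsewhere. The test was tested on simulated data. All members were named, of each pathway list the 2 with the largest called change in each direction in the cycle comparisons and at diestrus, and of each marker list the first 3; further genes are said to be named after their values were seen. Coordinates of genes are 1-based from GENCODE M21.

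Residuals of libraries with the same replicate number were correlated between the genotype labels at diestrus (r = 0.321, 0.115, 0.622 and 0.217 for replicates 1 to 4). Libraries with different numbers were not compared, so these values do not show a pairing, and no label gives one. The main fit was unpaired, and the replicate number entered as a block in alternatives only. At estrus r was 0.0805, 0.0958 and -0.0475, and between stages from -0.135 to 0.0181. Alternatives were other pseudocounts, filters and scalings, a 2-fold minimum, library weights, only the libraries compared, the replicate block and leaving out libraries. The result of 1 receptor gene is not reported here.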

Additional observations from a re-analysis of the deposited data

Results flagged for a closer look

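Of 64 groups of 4 libraries examined for a sample far from the others, 1 had one. Synm was 20.7 FPKM in replicate 3 of diestrus labelled HIF2A cKO, while the other libraries of that group were 11.9, 10.6 and 11.9, and the gap made up 0.869 of the range of the group. Chance alone gives such a gap in about 1 of 20 groups.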

How the results depend on the processing

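No call reversed. Counts of members are given as higher and lower; counts of all genes called in the order WT cycle, cycle labelled HIF2A cKO, diestrus, estrus and interaction were 8161, 8852, 3410, 15 and 5. A 2-fold minimum gave 0 and 5 members in the WT cycle (3 and 13 without it), 0 and 4 in the cycle labelled HIF2A cKO (6 and 11) and 0 lower at diestrus (3), with 1545, 1964 and 263 genes in all and 2 for the interaction. Median-of-ratios scaling gave 7 and 10 members higher in the cycle comparisons, and 50.7% of all WT cycle calls were then higher against 40.3%. Equal-sum scaling gave 35.6% higher at diestrus against 57.9%, and 1 gene for the interaction. Quantile normalization gave 5 members higher in the WT cycle, 23 genes at estrus and 10 for the interaction.

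Library weights gave 6 members higher in the WT cycle, 11 and 9 at diestrus, 3 higher at estrus and 8 and 5 for the interaction, with 7885, 1331 and 5225 genes at diestrus, at estrus and for the interaction. Only the libraries compared gave 0 and 0 members at diestrus (401 genes) and 2 higher at estrus (332 genes). Pseudocounts of 0.1 and 5 gave 7 and 26 genes at estrus, and 0.1 gave 8 for the interaction. No filter gave 26 and 11, the filter at 5 FPKM 0 at estrus, and keeping genes listed at 0 gave 12 for the interaction. No filter also gave 2 and 12 members in the WT cycle, 5 and 8 in the cycle labelled HIF2A cKO and 3 and 2 at diestrus. The calls lost were Atp2a2 and Mylk in WT, Csrp1, Myl9, Flna and Pln under the HIF2A cKO label, and Synpo2 at diestrus. The replicate block gave 5 members higher at diestrus and 462 genes for the interaction, and within diestrus alone 1 member lower and 2119 genes. It added to the calls of members in the WT cycle 1 lower, Actn1 (14), and in the cycle labelled HIF2A cKO 1 lower, Cald1 (12), and exchanged Csrp1 for Synm among the 6 higher. It changed none at estrus.

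Chosen after seeing the data, leaving out both diestrus libraries numbered 3 gave 6 members lower at diestrus, 3 and 1 for the interaction, and 63 and 1204 genes at estrus and for the interaction. On leaving out the 2 libraries highest in 45S rRNA, 3 members were higher in the cycle labelled HIF2A cKO, 6 and 0 at diestrus, with 1 gene at estrus and 11 for the interaction. Leaving out single libraries gave 2 to 5 members higher in the WT cycle. At diestrus it gave 2 to 7 higher, 0 to 5 lower and 1473 to 5013 genes in all. At estrus it gave 0 to 29 genes. For the interaction it gave 0 to 1 members higher, 0 to 1 lower and 0 to 1181 genes. Where calls were lost, the cause was not tested. FPKM carries no counts, so the depth behind low members such as Pln and Myocd is unknown.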
